A study of Mus musculus with 50 samples.

Results

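The collagen chains were the 44 genes, of 24984 in the count tables, whose symbol is Col, a number, the letter a and a number. They were grouped by the structure their proteins form into 11 fibrillar chains, 6 basement membrane chains (the type IV chains) and 27 other chains, which are fibril-associated, beaded filament, short-chain network, multiplexin, transmembrane and anchoring fibril collagens and 2 that belong to none of these. The rule for membership used the gene name alone and no expression value. Gene expression was measured by RNA-seq in 38 libraries, and open chromatin by ATAC-seq, which marks the DNA that the Tn5 transposase can reach, in 12 libraries. The study asked how kidney and liver change with age. Untreated C57BL/6 mice, all female by the study's methods, were 2.5 months old (young) or 23 to 25 months old (old), and each age gave 4 RNA-seq and 3 ATAC-seq libraries of kidney and of liver. Mice of 20 to 21 months given either the solvent DMSO or 3C supplied 4 further RNA-seq libraries per treatment from each of the 2 organs, and P9 skin fibroblasts kept with DMSO or 3C supplied 3 per treatment. The labels and methods used here do not say what 3C is, at what dose or for how long it was given, or what P9 stands for. A kidney or liver library holds the RNA of every cell type in the organ, so fewer cells of a type and less RNA per cell cannot be told apart in these values.

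Collagens are secreted proteins in which 3 α chains wind into a triple helix. Fibrillar collagens, such as type I (Col1a1 and Col1a2) and type III (Col3a1), assemble into the fibrils that give connective tissue its tensile strength, and in organs they are made mainly by fibroblasts and related stromal cells. Type IV chains form the sheet-like network of basement membranes, where Col4a1 and Col4a2 make up the network found in nearly all tissues, and Col4a3, Col4a4 and Col4a5 make up the network of the mature glomerular basement membrane, the filter of the kidney. Type VI chains form beaded filaments between the cell and the matrix, and types XV and XVIII (Col15a1 and Col18a1) lie near basement membranes although they do not build the network themselves.

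RNA-seq libraries held 14.2 to 43.7 M counts each, and 5.99 to 19.5% of the reads that were counted or fell outside genes did the latter. Levels are given as CPM, counts divided by the library's total and expressed per mega count, scaled by edgeR's TMM factors within the libraries compared, and levels of different genes are set beside each other only as CPM per kb of exon. Macrophage markers summed to 69.2 to 91.3 CPM in young kidney and 233 to 414 CPM in old kidney, and lymphocyte and plasma cell markers to 3.602 to 7.55 and 223 to 321 CPM. The hepatocyte markers Alb and others summed to 350 to 2551 CPM in old kidney, with 1 library (replicate 2) at the top, against 341 to 455 CPM in young kidney. Fibroblast markers summed to 5225 to 5465 CPM in the DMSO fibroblasts, and the 5 lymphocyte and plasma cell markers to at most 0.793 CPM there.

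Young kidney, young liver and the fibroblasts were led by different collagen transcripts, whereas the kidneys of the older mice shared the leading chain, Col18a1, with liver. In young kidney the highest chain per length was Col4a1 at 38.3 ± 2.18 CPM per kb (SD, n = 4), followed by Col18a1 at 31.1 ± 2.26 and Col4a3 at 29.2 ± 6.98 CPM per kb, and the last pair did not differ beyond their spread. In young liver Col18a1 stood alone at 192 ± 12.2 CPM per kb, above Col14a1, a fibril-associated chain, at 16.5 ± 3.62 and Col3a1 at 14.4 ± 5.10 CPM per kb, which overlapped. Col18a1 was also the highest chain in old liver at 187 ± 42.6, in DMSO liver at 332 ± 59.3 and in 3C liver at 323 ± 25.7 CPM per kb. In old kidney Col18a1 at 42.0 ± 6.31 CPM per kb stood above Col4a1 at 32.2 ± 10.1 and Col4a2 at 22.0 ± 5.09 CPM per kb, with overlapping spreads between neighbours. DMSO kidney was led by Col18a1 at 51.1 ± 2.0 CPM per kb, Col4a1 at 40.05 ± 1.35 and Col4a3 at 31.1 ± 2.73 CPM per kb, and 3C kidney by the same chains at 47.4 ± 6.99, 36.1 ± 6.16 and 32.2 ± 8.50 CPM per kb.

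The fibroblasts carried mostly fibrillar transcripts. In DMSO fibroblasts Col1a2 reached 1145 ± 198 CPM per kb (SD, n = 3), Col1a1 1057 ± 204 and Col3a1 765 ± 207 CPM per kb, and these 3 chains overlapped. In 3C fibroblasts the same chains led at 1060 ± 192, 910 ± 197 and 779 ± 135 CPM per kb. Type VI chains were also high there, Col6a1 at 201 and Col6a2 at 67.7 CPM per kb in DMSO fibroblasts, as were Col4a1 at 152 and Col4a2 at 180 CPM per kb, whereas Col4a3 and Col4a4, the glomerular chains, lay at 0.0888 and 0.0674 CPM per kb. Collagen chains took 2.66% of all counts in DMSO fibroblasts, 0.207% in young kidney and 0.104% in young liver. The untreated tissues, the DMSO and 3C tissues and the fibroblasts were scaled separately, so levels of these sets stand side by side without a test.

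**Figure D1:**
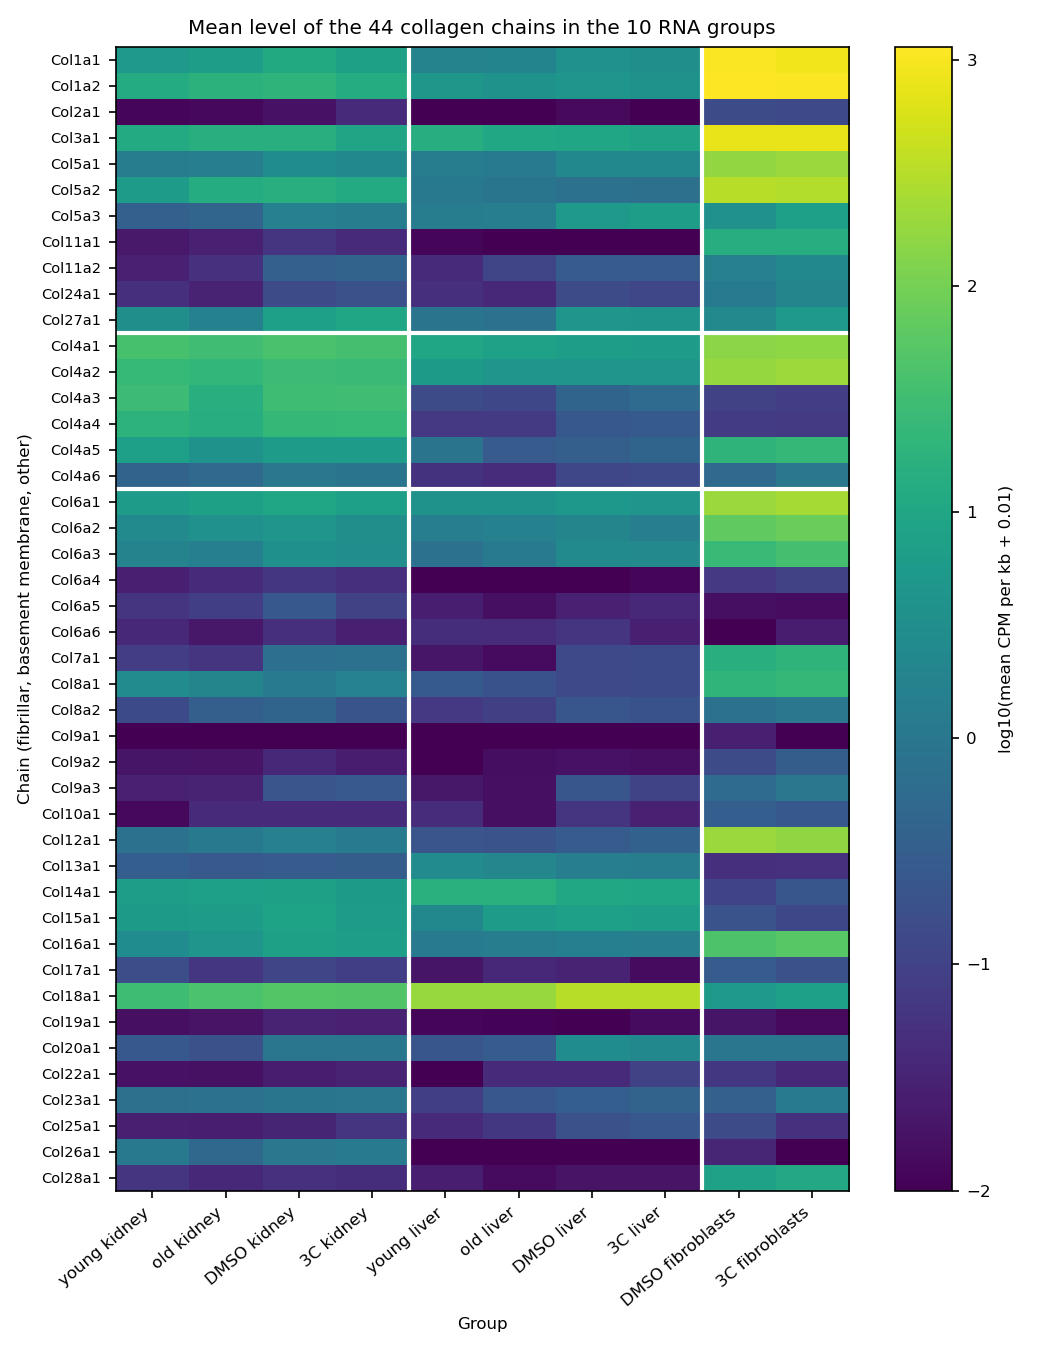
Heat map of the mean level of each of the 44 collagen chains (rows, ordered as fibrillar, basement membrane and other, with white lines between the classes) in the 10 RNA groups (columns), as log10 of the mean CPM per kb plus 0.01, 3 or 4 libraries a group. Col1a1, Col1a2 and Col3a1 are brightest in the fibroblasts, Col4a3 and Col4a4 in kidney, and Col18a1 in liver, where it had a mean of 192 CPM per kb in young liver.

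The classes were then summed per length within each library, and each class was expressed as a share of the summed collagen level. Fibrillar chains made up 18.9 ± 1.20% (SD, n = 4) of this sum in young kidney, 9.75 ± 2.58% in young liver and 78.7 ± 0.76% (n = 3) in DMSO fibroblasts. Type IV chains made up 52.7 ± 3.30% in young kidney, 6.20 ± 0.80% in young liver and 7.95 ± 0.29% in DMSO fibroblasts. The other chains filled the rest, 84.1 ± 3.01% in young liver, where Col18a1 alone was the largest chain. With age the type IV share of kidney went from 48.6 to 56.0% in the 4 young libraries to 38.2 to 41.7% in the 4 old libraries, without overlap, and the fibrillar share from 17.7 to 20.3% to 22.7 to 27.3%, also without overlap. With types XV and XVIII counted as basement membrane, the difference in means went from -12.9 to -7.66 percentage points in kidney and from -1.23 to 0.783 in liver. In liver the type IV share was 5.09 to 6.95% in young and 4.44 to 5.32% in old libraries, which overlapped, as did the fibrillar share. In mice with DMSO the kidney held 24.2 ± 1.56% fibrillar and 42.9 ± 1.43% type IV chains, and in mice with 3C 20.9 ± 1.14% and 46.7 ± 1.65%, and both shares overlapped between the groups, as they did in the liver of these mice. In the fibroblasts the fibrillar share was 78.1 to 79.5% with DMSO and 74.7 to 77.9% with 3C, and the type IV share 7.62 to 8.14% and 8.51 to 9.34%, both without overlap. These shares are descriptions over the members and were not tested.

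**Figure D2:**
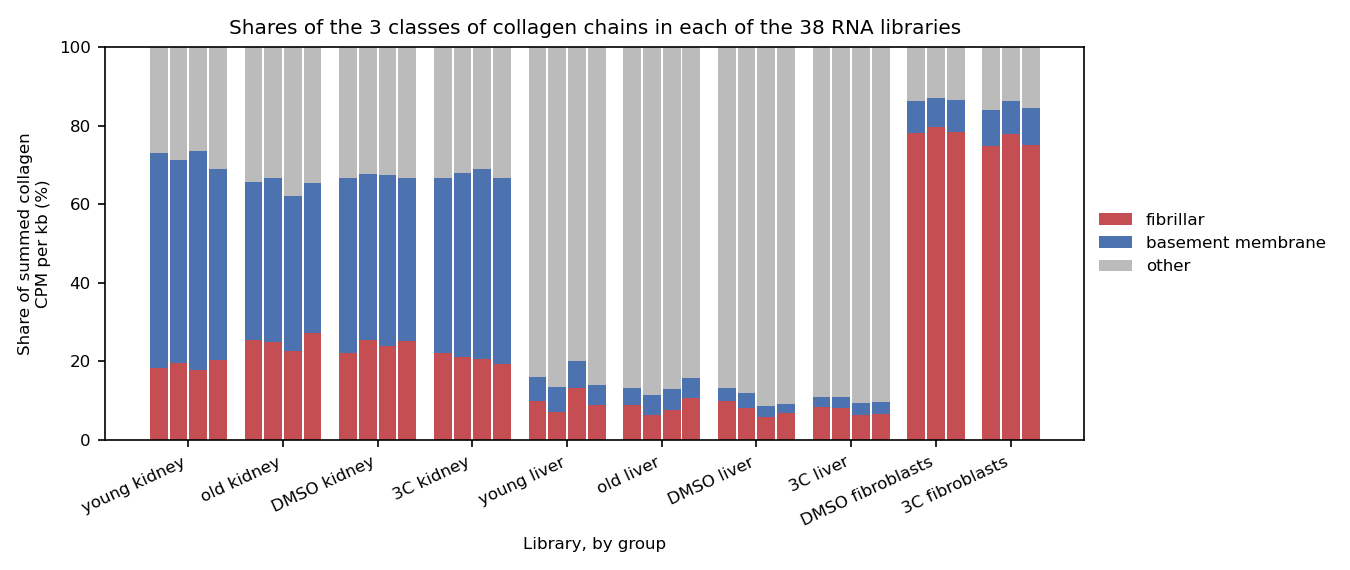
Share of the summed collagen level (CPM per kb, in %) held by fibrillar, basement membrane and other chains in each of the 38 RNA libraries, 1 bar a library. The 4 young kidney libraries hold 48.6 to 56.0% basement membrane chains and the 4 old kidney libraries 38.2 to 41.7%.

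Kidney was first compared with liver. Of the 26 chains tested in young mice, 17 were higher and 4 lower in kidney, where a call needed both a fold over 2 or under 0.5 and an adjusted p under 0.05 (edgeR's quasi-likelihood test, Benjamini-Hochberg over all 14057 genes tested), where 25.7% and 16.9% of all genes tested passed in those directions. The 6 type IV chains were all among the 17. Col4a3 was at 242 ± 56.9 CPM in kidney and 1.13 ± 0.308 CPM in liver, a log2 fold change of 7.73 (SE 0.27, adjusted p = 2.46e-10). Col4a4 was at 139 ± 29.7 and 0.454 ± 0.266 CPM, a log2 fold change of 8.22 (SE 0.33). Col4a1 and Col4a2, the chains of the network found in nearly all tissues, differed less, by 1.98 and 2.07 on the log2 scale, and Col4a5 and Col4a6 by 2.99 and 3.16. The median log2 difference between kidney and liver was 3.08 for the type IV chains, 1.47 for all 26 chains and 0.08 for all genes tested.

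Among the fibrillar chains Col1a1, Col1a2, Col27a1 and Col5a2 were higher in young kidney, Col5a2 by 2.46 on the log2 scale, and Col5a3, a chain of type V collagen, was lower, by -2.06. Col3a1 was at 67.7 ± 10.5 CPM in kidney and 78.3 ± 27.2 CPM in liver and did not pass the test. The chains higher in liver were Col18a1 (1086 ± 68.5 CPM in liver, 174 ± 13.4 CPM in kidney, log2 fold change -2.64), Col13a1, a transmembrane collagen (-3.15), Col14a1 (-1.33) and Col5a3. Col26a1 had no count in any of the 16 liver libraries and 2.95 ± 0.878 CPM in young kidney, at least 13.2-fold higher in kidney against a floor of 3 counts per library. The older mice with DMSO gave the same counts, 17 higher and 4 lower of 32 chains tested, where 26.6% and 15.7% of all genes passed. There the type IV chains had a median log2 difference of 3.67, Col4a3 being at 270 ± 22.6 CPM in kidney and 3.56 ± 2.46 CPM in liver (log2 fold change 6.25, SE 0.34). Col5a2 was higher in DMSO kidney by 4.31 on the log2 scale, at 102 ± 37.4 CPM against 5.08 ± 1.32 CPM in liver, Col18a1 was lower by -2.70, and Col26a1 was at least 12-fold higher. When the dependence on exon length and GC content was taken out of each library, 9 rather than 17 chains were called higher in young kidney and the median over the chains was 0.59. The chains no longer called in young kidney were Col1a1 (log2 fold change 0.48), Col1a2 (0.69), Col27a1 (0.75), Col4a1 (0.99), Col4a2 (0.92), Col6a3 (0.16), Col15a1 (0.50) and Col16a1 (0.22), so that 4 of the type IV chains and, of the fibrillar chains, Col5a2 were still called higher. In the DMSO kidneys 14 rather than 17 chains were then called, without Col1a1 (0.95), Col6a2 (0.57) and Col23a1 (adjusted p = 0.0876), and the median over the chains was 0.76.

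Kidney was then compared between the ages. Of 30 chains tested in kidney, 1 was called higher and 1 lower, where 5.68% and 0.407% of all genes tested were called. At an adjusted p under 0.05 without the fold limit the counts were 3 higher and 3 lower (8.15% and 3.36% of all genes). Of all genes tested 52.2% had a log2 fold change above 0. The 7 fibrillar chains tested had a median log2 fold change of 0.42, with 6 above 0, the 6 type IV chains a median of -0.25, with 1 above 0, and the 17 other chains a median of 0.17, with 10 above 0, against 0.02 for all genes tested.

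Col5a2 (chr1:45374331-45503282, minus strand, GRCm38), a type V chain that takes part in starting fibrils, was the fibrillar chain called higher. It stood at 62.3, 61.4, 62.7 and 45.0 CPM in the 4 young kidneys and at 188, 141, 60.8 and 145 CPM in the 4 old kidneys. Of the old libraries 3 were above every young library, and the third old library lay inside the young range, so the groups overlapped. The log2 fold change was 1.21 (SE 0.29, adjusted p = 0.0244, edgeR). The call was lost when any of 3 young libraries (replicates 1, 2 and 3) or old replicate 1 or 4 was left out, with adjusted p from 0.0576 to 0.0684, and with the replicate number as a block (log2 fold change 1.11, adjusted p = 0.0586). Its partner chain Col5a1 was at 15.8 ± 3.63 CPM in young and 18.5 ± 6.85 CPM in old kidney and did not pass.

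The type I and type III chains, which build most fibrils, did not pass the test in kidney with age. Col1a1 was at 43.0, 53.8, 37.7 and 43.1 CPM in young and 36.0, 63.0, 42.3 and 96.2 CPM in old kidney. Col3a1 was at 107, 103, 77.2 and 111 CPM in young and 68.7, 140, 95.0 and 196 CPM in old kidney. For both chains the old libraries spread on either side of the young ones, with old replicate 4 the highest. Col1a2 was at 96.9 ± 6.93 CPM in young and 138 ± 56.7 CPM in old kidney (log2 fold change 0.51, SE 0.25, adjusted p = 0.198). Among the type VI chains Col6a2 had a log2 fold change of 0.58 (SE 0.21, adjusted p = 0.104), from 22.1 ± 2.75 to 33.0 ± 10.7 CPM, and Col6a1 and Col6a3 also did not pass.

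Col27a1 (chr4:63215412-63334991, plus strand), a fibrillar chain best known from cartilage, had the smallest p of the members. It was at 38.9, 40.9, 34.6 and 30.3 CPM in young and 21.3, 19.0, 15.95 and 18.5 CPM in old kidney. Every old library was below every young one, and the level fell by 0.95 on the log2 scale (SE 0.14, adjusted p = 0.00248), just short of the fold limit, which it passed without young replicate 4 (-1.03) or old replicate 1 (-1.02). Col26a1 (chr5:136741760-136883215, minus strand) was the chain called lower, at 4.42, 4.67, 2.58 and 5.69 CPM in young and 1.93, 2.39, 2.60 and 1.43 CPM in old kidney. Young replicate 3 fell inside the old range, and the log2 fold change was -1.07 (SE 0.30, adjusted p = 0.0487). That call was lost under the replicate block (adjusted p = 0.123), without the filter on low counts (0.066) and on leaving out any of the 8 libraries other than young replicate 3 and old replicate 2 (adjusted p from 0.0534 to 0.133).

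Of the type IV chains, Col4a3 alone passed at the adjusted p of edgeR in kidney with age. Col4a3 (chr1:82586921-82722059, plus strand) was at 450, 367, 356 and 253 CPM in young and 182, 266, 138 and 210 CPM in old kidney. Only the lowest young and the highest old library overlapped, and the level fell by 0.84 on the log2 scale (SE 0.22, adjusted p = 0.036), short of the fold limit, which it passed without old replicate 2 (-1.01, adjusted p = 0.0105), the library high in hepatocyte markers. Over all alternatives the log2 fold change of Col4a3 ran from -1.01 to -0.50. Its adjusted p (edgeR or DESeq2) reached 0.0978, so it did not stay under 0.05 throughout. Col4a5 was at 90.4, 67.4, 57.3 and 50.8 CPM in young and 28.2, 53.9, 28.1 and 43.9 CPM in old kidney, and its log2 fold change of -0.79 (SE 0.25) missed the threshold at an adjusted p of 0.0676 by edgeR, whereas DESeq2 gave an adjusted p of 0.0134. Col4a4 was at 205 ± 42.0 CPM in young and 164 ± 25.6 CPM in old kidney (adjusted p = 0.227). Col4a1 was at 361 ± 17.1 and 320 ± 111 CPM, and Col4a2 at 221 ± 6.20 and 212 ± 56.2 CPM. Col4a6, the least abundant type IV chain, was at 3.79 ± 1.64 and 5.15 ± 1.48 CPM.

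Per length, Col4a3 stood to Col4a1 as 0.746 in young and 0.487 in old kidney, and to Col4a4 as 1.57 and 1.08. Both ratios were lower in every old library than in every young one (exact permutation test, two-sided p = 0.0286 each, the smallest that 4 against 4 allows). After adjustment over the 30 ratio tests made, p was 0.286 for both. The 3 glomerular chains together held 46.1 ± 4.99% of the type IV level in young and 38.4 ± 4.27% in old kidney, with overlap. Podocytes are the cells that make the glomerular network in the adult, and their 5 markers summed to 331 to 498 CPM in young and 281 to 479 CPM in old kidney, with 0 of 5 markers called higher or lower by edgeR. Proximal tubule markers summed to 5717 to 7847 CPM in young and 3220 to 4335 CPM in old kidney. All 5 had a log2 fold change below 0, with a median of -0.61. Of them 1, Slc5a12, was called lower by edgeR, where 0.407% of all genes were. The part of these markers in the type IV levels was not tested.

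Col16a1 and Col18a1 rose in old kidney by less than the fold limit. Col16a1 (chr4:130047840-130099277, plus strand), a fibril-associated chain, was at 18.2, 21.4, 18.3 and 25.9 CPM in young and 34.7, 28.8, 31.7 and 37.7 CPM in old kidney, without overlap (log2 fold change 0.66, SE 0.15, adjusted p = 0.0185). Col18a1 (chr10:77052179-77166530, minus strand), whose C-terminal fragment is endostatin, was at 272, 245, 235 and 271 CPM in young and 321, 361, 311 and 455 CPM in old kidney, also without overlap (log2 fold change 0.50, SE 0.14, adjusted p = 0.0433). Over the alternatives the adjusted p (edgeR or DESeq2) reached 0.0674 for Col16a1 and 0.134 for Col18a1, so neither stayed under 0.05 throughout. Col16a1 and Col18a1 were the only higher members of the 30 whose groups did not overlap, and Col27a1 the only lower one, where 10.9% and 6.91% of all genes tested did not overlap in these directions. Col15a1, the near relative of Col18a1, was at 42.3 ± 11.5 and 46.6 ± 22.0 CPM and did not pass.

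**Figure D3:**
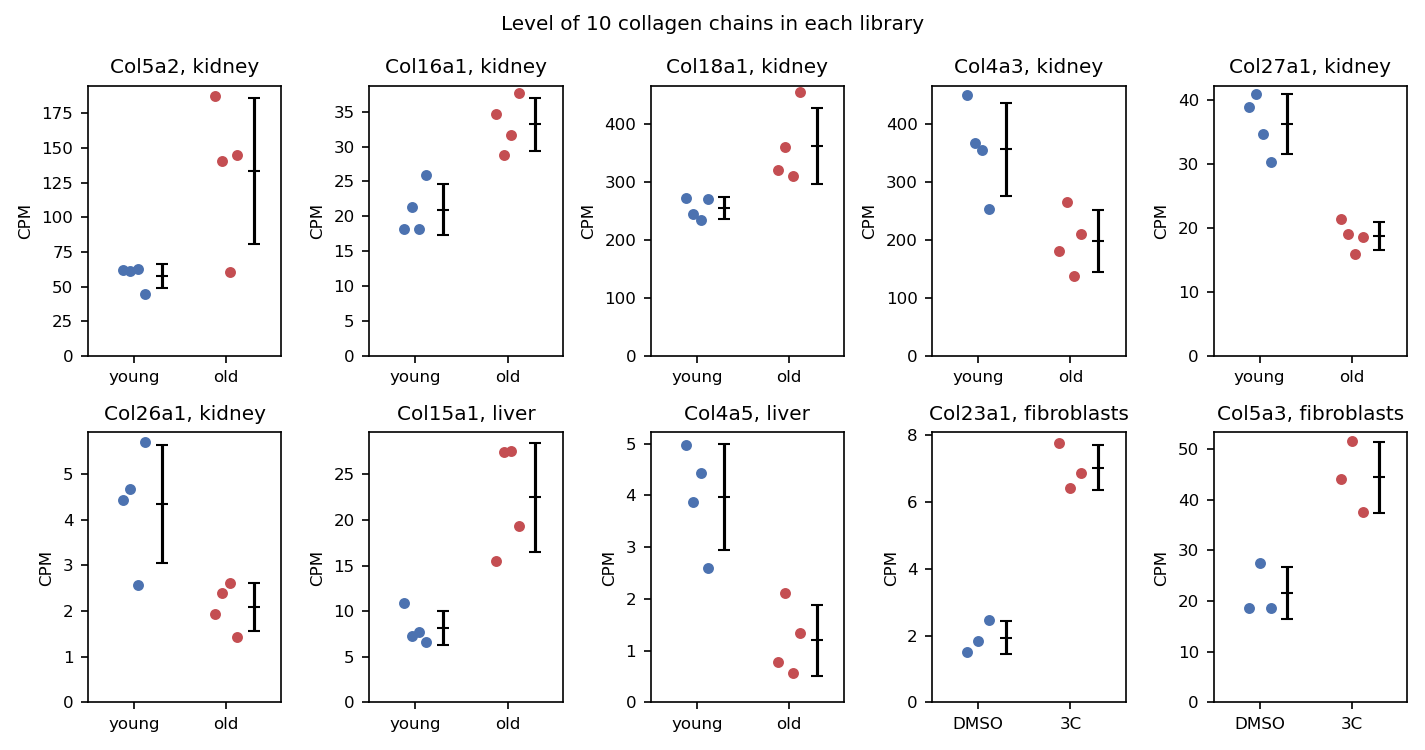
Level (CPM) of 10 collagen chains in each library of the groups compared (blue dots, young or DMSO, red dots, old or 3C), with the mean and SD beside the dots, 4 libraries a group for kidney and liver and 3 for fibroblasts. The old Col5a2 libraries range from 60.8 to 188 CPM and 1 of them lies among the young ones, whereas Col27a1, Col15a1, Col23a1 and Col5a3 do not overlap between their groups.

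Genes that act on or bind collagen were compared by the same test, where 5.68% of all genes were called higher with kidney age. No gene was called by edgeR among the 16 tested that modify and fold the chains or the 9 tested of secretion and propeptide removal. Of 13 genes of cross-linking and fibril assembly, 2 were higher and 0 lower. They were Bgn (biglycan, 198 ± 22.2 to 454 ± 143 CPM, log2 fold change 1.20, adjusted p = 0.00545) and Lum (lumican, 8.78 ± 0.475 to 26.1 ± 9.52 CPM, log2 fold change 1.57, adjusted p = 0.00367), both small proteoglycans that bind fibrils. Of 9 collagen receptors 2 were higher, Lair1, an inhibitory receptor of leukocytes (log2 fold change 2.85, adjusted p = 0.00516), and Itga11 (1.98, adjusted p = 0.0291), an integrin subunit of fibroblasts. Of 11 genes of TGF-β signalling, the main inducer of fibrillar collagen, 1 was higher, the ligand Tgfb1 (13.6 ± 0.510 to 27.1 ± 7.42 CPM). None of the 15 other basement membrane proteins was called, and their median log2 fold change was -0.25, against 0.02 for all genes. The fibroblast markers Dpt, Lum and Thy1 were called higher, 3 of 6, and the 6 markers summed to 99.99 to 124 CPM in young and 117 to 205 CPM in old kidney. All 5 macrophage and all 5 lymphocyte and plasma cell markers were also called higher, and of 6 endothelial markers 1, Stab2, was called lower. Their part in the values of the chains was not tested.

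In liver, 1 of 23 chains tested was called higher with age and 0 lower, where 1.69% and 0.439% of all 12537 genes were called. Col15a1 (chr4:47208012-47313165, plus strand), a multiplexin of the basement membrane zone, was at 10.9, 7.30, 7.76 and 6.66 CPM in young and 15.5, 27.5, 27.5 and 19.4 CPM in old liver. Every old library was above every young one, and the log2 fold change was 1.46 (SE 0.24, adjusted p = 0.0132). The call was lost when young replicate 2 or young replicate 3 was left out, with adjusted p of 0.057 and 0.0596. Of the 23 chains Col15a1 alone was higher without overlap, where 6.05% of all genes were.

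Col4a5 (chrX:141475419-141689235, plus strand) was the lower liver chain without overlap, where 3.9% of all genes were lower in that way. It was at 4.98, 3.87, 4.44 and 2.60 CPM in young and 0.788, 2.11, 0.576 and 1.35 CPM in old liver. The fold change of -1.69 on the log2 scale (SE 0.41) missed the threshold at an adjusted p of 0.0567 by edgeR, and 1 chain, Col4a5, had an unadjusted p under 0.05 in the lower direction, as 4.74% of all genes had. DESeq2 called it lower, with an adjusted p of 0.0015, as did edgeR without the filter on low counts (0.0432) or without old replicate 2 (0.0373). The other type IV chains tested in liver were also at lower mean levels without passing, Col4a1 at 43.6 ± 8.21 and 35.8 ± 10.5 CPM and Col4a2 at 25.1 ± 2.84 and 20.5 ± 5.86 CPM, and the median of the 4 type IV chains was -0.29.

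The fibrillar chains of liver did not pass with age. Col1a1 was at 7.46 ± 3.53 CPM in young and 7.87 ± 3.01 CPM in old liver, Col1a2 at 17.0 ± 5.54 and 14.5 ± 4.87 CPM and Col3a1 at 54.9 ± 18.9 and 42.2 ± 11.8 CPM. Col18a1, the leading chain, was at 762 ± 46.9 and 753 ± 174 CPM. Col6a3, a type VI chain, had a log2 fold change of 0.76 (SE 0.36, adjusted p = 0.365), and Col23a1 one of 1.56 (SE 0.81, adjusted p = 0.424). Per length, Col3a1 stood to Col1a1 as 8.14 in young livers and 5.85 in old ones (two-sided exact permutation p = 0.0286, or 0.286 after adjustment over 30 tests). Of the genes around collagen in liver, none was called among the 16 tested that modify and fold the chains, the 7 of secretion and propeptide removal, the 12 of cross-linking and fibril assembly, the 15 basement membrane proteins or the 11 of TGF-β signalling. Of 6 receptors 1 was higher, Lair1 (log2 fold change 1.24, adjusted p = 0.0482). Of 4 markers of smooth muscle and myofibroblasts 1 was lower, Postn, which encodes the matrix protein periostin and fell from 24.0 ± 5.94 to 9.37 ± 0.949 CPM (log2 fold change -1.35, adjusted p = 0.00852). Of the macrophage markers 1 of 5 (Cd68) was higher, and of the lymphocyte and plasma cell markers all 4 tested. The 6 hepatocyte markers all had a log2 fold change below 0, with a median of -0.47 and 0 called by edgeR, and summed to 179532 to 279530 CPM in young and 99639 to 194119 CPM in old liver. Their part in the values of the chains was not tested.

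Whether the age effects differed between the organs was tested as an interaction over the 16 untreated libraries. None of the 30 chains tested passed by edgeR, where 1.72% of all 15036 genes did. Among the 30, Col26a1 had no count in liver and could not have passed. At an unadjusted p under 0.05 there were 3 chains, Col15a1 (the liver effect exceeded the kidney effect by 1.38 on the log2 scale, adjusted p = 0.126), Col5a2 (-1.41, adjusted p = 0.107) and Col27a1, where 14% of all genes had such a p. Without old kidney replicate 3, Col5a2 passed (-1.70, adjusted p = 0.0198). The rise of Col15a1 in liver and of Col5a2 in kidney is therefore not shown to be particular to either organ.

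**Figure D4:**
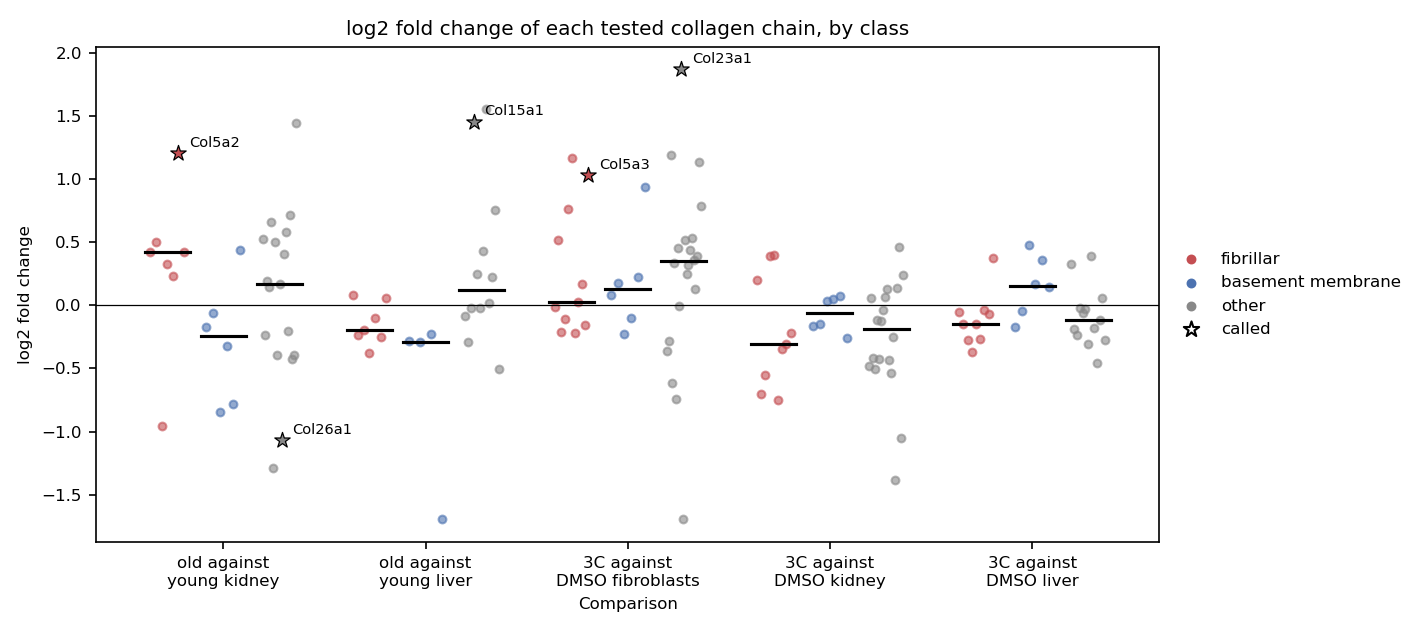
log2 fold change of each tested collagen chain in the 5 age or 3C comparisons, coloured by class, with a bar at the median of each class and stars for the called chains. In kidney with age the fibrillar median lies at 0.42 and the basement membrane median at -0.25, and with 3C in kidney the fibrillar median lies at -0.31.

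In the fibroblasts 3C was compared with DMSO. Of 37 chains tested 2 were called higher and 0 lower, where 1.23% and 0.632% of all 13449 genes were called. DESeq2 called 0 lower, and 1 chain was lower at an unadjusted p under 0.05 by edgeR, as 9.47% of all genes were. Neither of the 2 higher chains belongs to the abundant chains of these cells. Col23a1 (chr11:51289920-51583925, plus strand), a transmembrane collagen, was at 1.5, 1.84 and 2.46 CPM with DMSO and 7.75, 6.42 and 6.87 CPM with 3C, and the log2 fold change was 1.87 (SE 0.24, adjusted p = 0.00214). Col5a3 (chr9:20770057-20815067, minus strand), a minor type V chain, was at 18.6, 27.6 and 18.7 CPM with DMSO and 44.1, 51.5 and 37.5 CPM with 3C (log2 fold change 1.04, SE 0.18, adjusted p = 0.0111). Both chains were separated between the groups. The fold of Col5a3 was close to the limit, and its call was lost on leaving out DMSO replicate 1 (log2 fold change 0.94) or replicate 3 (adjusted p = 0.0768) or 3C replicate 2 (0.0531), and with the dependence on exon length and GC content removed (log2 fold change 0.84).

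The abundant chains of the fibroblasts did not pass. Col1a1 was at 4892, 6795 and 7114 CPM with DMSO and 5426, 6551 and 4235 CPM with 3C. Col1a2 was at 5977 ± 1023 and 5540 ± 1003 CPM, and Col3a1 at 4254 ± 1144 and 4340 ± 740 CPM. The groups of all 3 chains overlapped widely. Of the type VI chains Col6a1, at 798 ± 74.9 and 950 ± 43.4 CPM, and Col6a2, at 407 ± 40.6 and 509 ± 39.4 CPM, were separated between the groups without passing (Col6a2 adjusted p = 0.196).

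Several low chains of the fibroblasts had large fold changes that missed the threshold. Col27a1 was at 24.0, 21.4 and 10.3 CPM with DMSO and 58.9, 37.6 and 29.5 CPM with 3C (log2 fold change 1.17, SE 0.30, adjusted p = 0.0585), and it was called by DESeq2 (adjusted p = 0.00205), without the filter (0.00275), with a replicate block (0.00598) and on leaving out DMSO replicate 1 (0.0474) or 3C replicate 3 (0.0222). Col4a6 was at 3.00, 3.73 and 3.72 CPM with DMSO and 8.54, 7.38 and 4.02 CPM with 3C (0.94, SE 0.28, adjusted p = 0.0842), and it was called without 3C replicate 3 (1.20, adjusted p = 0.0163). Col25a1, a transmembrane chain, was at 0.750, 0.796 and 1.58 CPM with DMSO and 0.225, 0.319 and 0.389 CPM with 3C (-1.70, SE 0.50, adjusted p = 0.0841). In all, 10 of the 37 chains were higher and 2 lower without overlap, where 13.0% and 12.5% of all genes were. The class medians were 0.03 for fibrillar, 0.13 for type IV and 0.35 for other chains, against 0.01 for all genes.

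Of the genes around collagen in these fibroblasts, where 1.23% of all genes were called higher, 1 of 13 of cross-linking and fibril assembly was higher, Tnxb (tenascin-X, 120 ± 15.5 to 269 ± 56.5 CPM, log2 fold change 1.17, adjusted p = 0.00423). Of 14 basement membrane proteins tested 2 were higher, Nid2 (nidogen 2, 15.8 ± 6.17 to 39.2 ± 13.4 CPM, adjusted p = 0.0389) and Agrn (agrin, 25.4 ± 7.11 to 52.8 ± 8.21 CPM, adjusted p = 0.0157). None of the 6 fibroblast markers and none of the 5 markers of smooth muscle and myofibroblasts was called by edgeR, and the latter summed to 5473 to 5828 CPM with DMSO and 3600 to 4518 CPM with 3C. The 5 macrophage markers, none of them called, summed to 63.1 to 77.4 CPM with DMSO and 31.8 to 52.4 CPM with 3C. The part of these differences in the levels of the chains was not tested.

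In the kidney of mice with 3C no chain of 33 tested was called by edgeR, nor by DESeq2 under the same limits, and edgeR called 0% of all 14974 genes. At an unadjusted p under 0.05 edgeR gave 11 lower and 2 higher chains, where 7.09% and 4.84% of all genes had such a p. DESeq2 without the fold limit gave 3 lower chains at an adjusted p under 0.05, Col1a1, Col1a2 and Col15a1, where it gave 1.01% of all genes lower. Col1a1 was at 86.8, 96.5, 95.0 and 120 CPM with DMSO and 50.3, 76.0, 55.8 and 62.5 CPM with 3C, a log2 fold change of -0.70 (SE 0.13, adjusted p = 0.138, edgeR). Col1a2 was at 136, 135, 131 and 171 CPM with DMSO and 73.0, 120, 93.2 and 104 CPM with 3C (-0.56, SE 0.14, adjusted p = 0.208). In both chains every 3C library was below every DMSO library.

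Col6a2 (39.3, 37.2, 36.1 and 39.0 CPM with DMSO, 15.97, 30.2, 28.8 and 29.6 CPM with 3C) and Col12a1, a fibril-associated chain (30.5, 22.3, 21.7 and 28.8 CPM, 13.95, 20.7, 18.7 and 20.5 CPM), were also lower in every 3C library. With Col1a1 and Col1a2 they were the 4 chains lower without overlap, and 0 were higher, where 3.84% and 3.1% of all genes were. Col3a1 was at 125, 104, 93.6 and 153 CPM with DMSO and 40.02, 99.9, 68.9 and 73.8 CPM with 3C (log2 fold change -0.75, SE 0.23, adjusted p = 0.263), with overlap. 3C replicate 1 was the lowest library for these 5 chains, and it was also low for Col4a1, at 250 CPM against 358 to 368 CPM in the other 3C kidneys. Without it the log2 fold change was -0.61 for Col1a1, -0.43 for Col1a2, -0.55 for Col3a1 and -0.35 for Col6a2, with adjusted p from 0.153 to 0.272, and no chain was called.

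Of all genes tested 51.4% lay above 0 in kidney with 3C. The class medians were -0.31 for the 9 fibrillar chains, with 3 above 0, -0.06 for the type IV chains, with 3 of 6 above 0, and -0.19 for the other chains, against 0.00 for all genes. Col4a3 was at 377 ± 29.4 CPM with DMSO and 387 ± 101 CPM with 3C, and Col4a1 at 375 ± 11.9 and 335 ± 56.3 CPM. Each of the 13 genes of cross-linking and fibril assembly had a log2 fold change below 0, with a median of -0.37, and none was called by edgeR. The 6 fibroblast markers also all lay below 0, with a median of -0.74, and summed to 141 to 181 CPM with DMSO and 77.9 to 122 CPM with 3C, and macrophage markers summed to 266 to 283 and 183 to 263 CPM. Markers of smooth muscle and myofibroblasts summed to 127 to 181 and 84.4 to 127 CPM, with a median of -0.44 and 1 of 5 above 0. All 5 proximal tubule markers lay above 0, with a median of 0.17. None of these markers was called by edgeR. Their part in the levels of the chains was not tested.

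In the liver of mice with 3C no chain of 28 was called by edgeR or DESeq2, none had an unadjusted p under 0.05 in either direction (1.91% of all genes higher and 1.43% lower had), and edgeR called 0% of all 13042 genes. No chain was higher or lower there without overlap, where 1.1% and 1.11% of all genes were. The median log2 fold change was -0.07 over the chains, -0.15 over the fibrillar and 0.16 over the type IV chains. Col18a1 was at 1366 ± 232 CPM with DMSO and 1339 ± 98.6 CPM with 3C, Col1a1 at 15.4 ± 6.36 and 13.8 ± 4.52 CPM and Col15a1 at 26.9 ± 1.89 and 26.5 ± 8.30 CPM. A test of the difference between the 3C effects in kidney and liver gave 0 of 34 chains (Col26a1, without liver counts, again among them), and 0% of 15526 genes, by edgeR. Col12a1 alone had an unadjusted p under 0.05 there (liver effect minus kidney effect 0.80, adjusted p = 1), as 3.57% of all genes had.

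Open chromatin was then examined at the start sites of the chains. A chain was counted where an ATAC-seq peak lay within 1 kb of a start site. In kidney 31, 29 and 29 of the 44 chains had such a peak in the 3 young libraries and 25, 30 and 30 in the 3 old libraries (exact permutation test, two-sided p = 0.8, where 3 against 3 cannot go below 0.1), and of all genes 60.7 to 63.8% had one in each library. In liver the counts were 20, 16 and 18 in young and 19, 15 and 17 in old libraries (exact p = 0.7), and of all genes 57.3 to 60.3% had one. Of the 44 chains 20 had a peak in all 6 kidney libraries and 10 in all 6 liver libraries, where 55.9% and 49.7% of all genes did, and 8 in kidney and 18 in liver had none in any library, as 29.9% and 30.2% of all genes had.

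Type IV genes lie in pairs that start next to each other on opposite strands. Col4a1 and Col4a2 overlap at their starts on chromosome 8, Col4a3 and Col4a4 start 71 bases apart on chromosome 1, and Col4a5 and Col4a6 start 1342 bases apart on the X chromosome, so both genes of a pair can share a peak. The shared peak of Col4a3 and Col4a4 had a fold enrichment over local background of 4.67, 5.33 and 4.88 in young and 5.61, 5.47 and 7.22 in old kidney. It was higher in every old library, while the RNA of Col4a3 was lower in old kidney. In liver, where both RNAs averaged under 1 CPM in either age group on the scale of the liver age comparison, the same peak was called in all 6 libraries, at 3.84, 4.80 and 4.38 in young and 5.45, 4.16 and 3.21 in old libraries. The peak at Col4a5 in liver was at 5.43, 3.33 and 3.35 in the young libraries, was absent from the lists of 2 old libraries and was at 2.0 in the third, and Col4a5 RNA was lower in old liver without passing the test.

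Across the 44 chains, 4 had a higher and 4 a lower promoter enrichment in old kidney without overlap, where 9.52% and 6.22% of all genes did. The higher ones were Col12a1, Col6a1 and the pair Col4a3 and Col4a4, and the lower ones were Col16a1, Col1a1, Col25a1 and Col8a2. Col16a1 was at 10.3, 9.57 and 8.60 in young and 6.52, 6.64 and 7.22 in old kidney, in the opposite direction to its RNA. Col12a1 RNA, at 13.3 ± 3.74 CPM in young and 19.1 ± 8.14 CPM in old kidney, and Col6a1 RNA, at 34.1 ± 3.76 and 45.2 ± 16.7 CPM, had higher means in old kidney, as their peaks did, without passing the test. With the dependence on exon length and GC content removed, edgeR called Col12a1 higher (log2 fold change 1.01, adjusted p = 0.00524). The Col12a1 peak was listed in 2 and the Col6a1 peak in 1 of the 3 young kidney libraries, and both in all 3 old ones. Col1a1 RNA did not pass, and Col25a1 RNA was too low to be tested. Col8a2, a short-chain network collagen, had a peak at 4.07, 3.52 and 3.00 in the young kidneys and none listed in the old ones, the only member with that pattern, which 0.427% of all genes had. Every old kidney list was shorter (93072 to 108970 peaks) than every young one (115836 to 128395 peaks). The pattern of Col8a2 was not recomputed with equal peak numbers. Col8a2 RNA was at 0.213, 1.03, 1.15 and 0.719 CPM in young and 0.964, 2.04, 2.37 and 3.00 CPM in old kidney (log2 fold change 1.44, SE 0.51, adjusted p = 0.0944 by edgeR), and DESeq2 called it higher (1.43, adjusted p = 0.0396). In liver 0 chains were higher and 2 lower, Col12a1 (3.01, 2.83 and 3.26 against 2.18, 2.0 and 1.91) and Col4a5, where 4.97% and 4.01% of all genes were. Col15a1, whose RNA rose in old liver, had no promoter peak in any of the 6 liver libraries, and Col5a2 was at 6.90, 7.69 and 5.40 in young and 4.23, 4.77 and 7.57 in old kidney. Single peaks were not tested, so these are descriptions. Of a peak that is not listed, only the lack of a call is known.

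**Figure D5:**
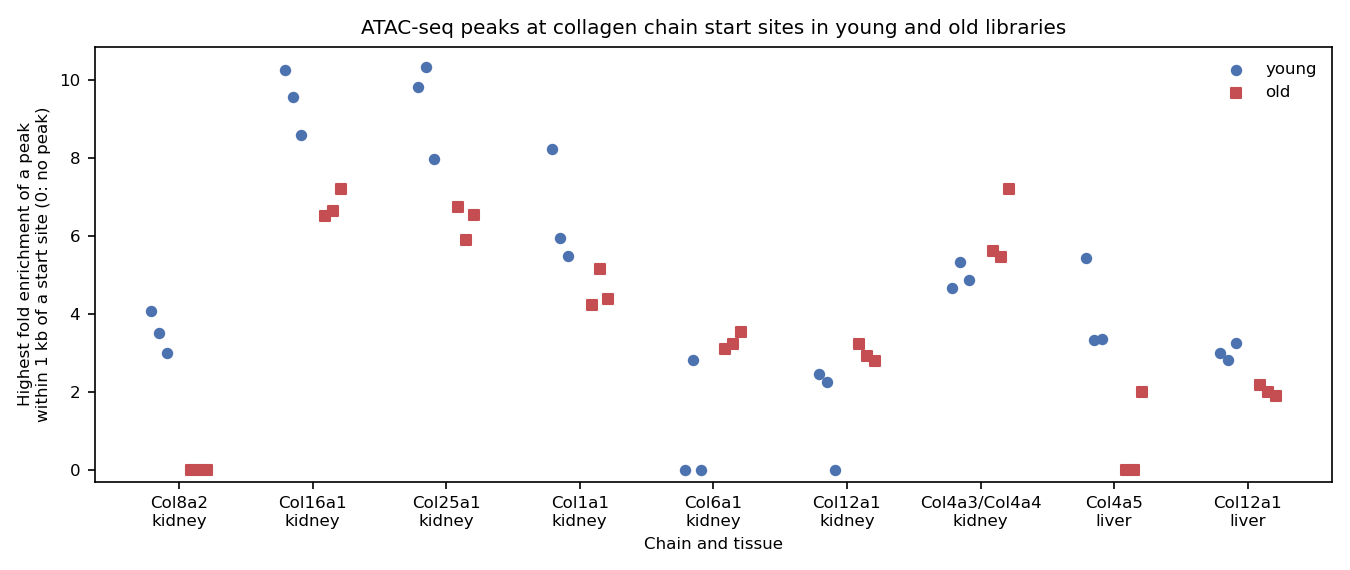
Highest fold enrichment of an ATAC-seq peak within 1 kb of a start site (0 where no peak was listed) in the 3 young (blue circles) and 3 old (red squares) libraries, for the chains whose groups do not overlap. Col8a2 has peaks at 3.00 to 4.07 in young kidney and none in old kidney, and the shared Col4a3 and Col4a4 peak is higher in the old libraries.

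Upstream sequence is shown for 3 chains from a short list picked by hand, those whose window held a long enough run free of annotated exons. The other chains were not screened in this way. The sequences are RefSeq's on GRCm38.p6, printed 5′ to 3′ on the gene's strand, with matches of GGGCGG (the core of the box bound by Sp1) and of CCAAT, on either strand, in capitals. The window of Col8a2 is chr4:126286544-126286792 on the plus strand, that of Col5a3 chr9:20815118-20815317 on the minus strand and that of Col4a5 chrX:141475169-141475369 on the plus strand.
Col8a2: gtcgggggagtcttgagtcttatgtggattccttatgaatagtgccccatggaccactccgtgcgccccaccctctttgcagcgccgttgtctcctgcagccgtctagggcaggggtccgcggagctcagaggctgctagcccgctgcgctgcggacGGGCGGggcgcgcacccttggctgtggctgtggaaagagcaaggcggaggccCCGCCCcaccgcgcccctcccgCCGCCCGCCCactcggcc
Col5a3: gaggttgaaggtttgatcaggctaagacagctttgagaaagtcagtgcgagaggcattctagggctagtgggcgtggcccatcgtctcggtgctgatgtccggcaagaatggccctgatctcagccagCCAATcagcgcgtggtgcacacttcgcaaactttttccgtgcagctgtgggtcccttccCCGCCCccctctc
Col4a5: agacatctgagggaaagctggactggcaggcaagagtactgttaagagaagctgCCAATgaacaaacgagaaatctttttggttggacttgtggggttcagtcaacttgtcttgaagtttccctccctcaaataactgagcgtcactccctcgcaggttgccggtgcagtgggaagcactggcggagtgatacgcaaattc
These windows stop 1 base (Col8a2), 50 bases (Col5a3) and 49 bases (Col4a5) before the start. Col8a2, the chain with a kidney peak in all young and no old libraries, holds 4 matches of GGGCGG in this window and none of CCAAT, Col5a3, which with Col23a1 was called higher in fibroblasts with 3C, holds 1 of each, and Col4a5, lower in old liver without passing by edgeR, holds 1 of CCAAT, with GGGCGG found only nearer to its start. The pair of GGGCGG matches nearest to the start of Col8a2 overlaps.

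Over the 250 bases before the start, the RefSeq table held a sequence for 35 of the 44 chains. GGGCGG was found in 21 of the 35 (60%) and in 35.4% of all 27025 genes with a sequence. CCAAT was found in 13 (37.1%) against 37.5% of all genes, and TATAAA in 5 (14.3%) against 14.3%. TGANTCA, the core of the site that the AP-1 factors studied in this series bind, was found in 1 chain, Col6a1 (2.86%), against 7.82% of all genes. Both strands were searched for each motif. A match is a stretch of letters and not a bound site, and the lack of a match says only that these letters are not in this window.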

How the data were processed

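RNA-seq (38 libraries) and ATAC-seq (12 libraries) were analysed from the processed files. Per the submitters' processing notes and methods, the authors used Trimmomatic 0.39 for trimming, HISAT2 2.2.1 for alignment to mm10 and HTSeq 0.12.4 for counting per gene, not strand-aware, and the deposited values are counts. Counting without strand cannot part genes that overlap on opposite strands, which touches Col9a3 (7.98% of its exon bases, with Tcfl5) and Col4a1 and Col4a2 (under 0.35%). ATAC-seq reads were aligned by the authors with Bowtie2 2.3.5.1, who called peaks with MACS2 in each library, and the deposited peak lists give fold enrichment as a ratio over local background, with the −log10 p-value and −log10 q-value.

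Each comparison used its own 2 groups, the quasi-likelihood test of edgeR 4.0.16 under R 4.3.3, TMM scaling and a filter (filterByExpr, minimum count 10), and p-values were adjusted by Benjamini-Hochberg over all genes tested. Calls needed a fold above 2 or below 0.5 with an adjusted p under 0.05. Interactions were fitted over 16 libraries and called on the adjusted p alone. Levels per kb used the union of RefSeq exons on GRCm38.p6, found for all 44 chains. Chains named were those called with age or 3C, the type IV chains, Col1a1, Col1a2, Col3a1, Col5a1, Col5a2, Col6a1, Col6a2, Col6a3, Col15a1, Col18a1 and the 3 highest chains of each group. Any other chain named was chosen after its values were seen. The collagen chains were taken as the set to describe, and the gene lists chosen, with earlier results of these data known, although membership followed the name alone. A gene of the TGF-β signalling list is not reported here and was left out of its counts. Results were recomputed with DESeq2 1.42.0, with RLE in place of TMM, without the filter or with a mean of at least 1 CPM, without the fold limit, with a replicate block, with the dependence on exon length and GC content taken out, and without each library in turn. Peak results were recomputed with equal peak numbers, a −log10 q of at least 5 and a window of 250 bp.

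The labels number the libraries but do not say that they came from separate animals or cultures, so p-values measure the spread between these libraries, which may be technical. No 2 libraries of a group agreed within sampling noise (54 pairs, smallest chi-square per degree of freedom 8.12). Libraries with the same number were read as paired where every correlation of their deviations was over 0.1. This held for young kidney and young liver (4 correlations from 0.104 to 0.452), a pairing seen in the data and not stated in the labels. The main comparison of these groups and the age interaction were tested without this pairing, and the replicate block was run only as an alternative. In the other comparisons at least 1 pair was lower (0.0117 to 0.126 for DMSO kidney and DMSO liver). Of 200 genes given a 4-fold change in simulated counts, the steps found 183 (kidney age), 176 (liver age), 193 (fibroblasts), 196 (3C kidney) and 188 (3C liver), with 3 to 9 false calls. Smaller changes, near the fold limit of 2, were not simulated, so these counts do not tell how often such changes are missed. Figures were drawn with matplotlib 3.10.9, and the exact tests went through every split of the libraries.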

Additional observations from a re-analysis of the deposited data

Results flagged for a closer look

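In groups of 4 libraries, 1 library stood far from the other 3 by Dixon's criterion at 95%, which sets its gap to the nearest against the whole range. This occurred in 13 of 176 combinations of a measure and a group, where chance flags about 1 in 20 groups. The measures were the levels of single chains, the summed collagen level, and shares of classes and of the glomerular chains. All 13 flags were levels of single chains. 3C kidney replicate 1 was the library in 4 of them, with Col4a1 at 250 CPM against 358 to 368 CPM in the other 3C kidneys, Col6a2 at 15.97 against 28.8 to 30.2 CPM, Col6a3 at 33.1 against 48.3 to 48.9 CPM and Col18a1 at 299.6 against 407 to 414 CPM. In the other kidney groups, Col5a2 was at 45.0 CPM in young replicate 4 against 61.4 to 62.7 CPM and at 166 CPM in 3C replicate 3 against 92.7 to 102 CPM, and Col6a1 was at 39.7 CPM in young replicate 2 against 31.5 to 32.8 CPM. In DMSO kidney, Col4a1 was at 392 CPM in replicate 4 against 367 to 371 CPM, Col1a2 at 171 CPM in replicate 4 against 131 to 136 CPM and Col27a1 at 54.7 CPM in replicate 1 against 83.2 to 85.7 CPM. In liver, Col4a2 was at 20.8 CPM in young replicate 4 against 26.3 to 26.6 CPM, Col4a3 at 0.469 CPM in the same library against 0.866 to 0.918 CPM, and Col6a3 at 28.5 CPM in DMSO replicate 2 against 16.8 to 18.7 CPM. The causes were not tested.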

How the results depend on the processing

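In kidney with age, where 1 chain was called higher and 1 lower, DESeq2 called 2 higher, the removal of the length and GC trend 2, the adjusted p alone 3, and the replicate block 0. The lower count was 0 without a filter, with a minimum mean of 1 CPM and with the replicate block, and 3 by the adjusted p alone. Leaving out 1 library gave 0 to 1 higher and 0 to 2 lower chains, and without old kidney replicate 2 Col4a3 passed the fold limit at -1.01. In liver with age the lower count of 0 became 1 (Col4a5) with DESeq2, without a filter and with the trend removed, and leaving out 1 library gave 0 to 1 chains in each direction. In fibroblasts the 2 higher chains became 1 (Col23a1) with the trend removed and 1 to 4 on leaving out a library. Between young kidney and liver, 17 higher chains became 9 with the trend removed and 17 to 19 on leaving out a library, and the replicate block gave 19. Between DMSO kidney and DMSO liver the block gave 21 higher and 5 lower chains rather than 17 and 4. The age interaction gave 0 to 1 chains on leaving out a library. In the age and 3C comparisons the replicate block changed the calls of Col5a2 and Col26a1 in kidney and Col27a1 in fibroblasts and no other.

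The type IV share was 12.9 percentage points lower in old than young kidney (difference -12.9, from -14.3 to -11.9 on leaving out a library), and -7.66 with types XV and XVIII counted as basement membrane. In liver it was -1.23 (-1.59 to -0.974) and 0.783 in the same order. The number of chains with a promoter peak in kidney, old minus young, was -1.33, turned to 0.667 with equal numbers of top peaks per library and to 0.333 without old replicate 1 (from -2.17 to 0.333 over the libraries left out). Over single chains with an age or 3C log2 fold change of at least 0.5 or an adjusted p under 0.05, or called between the organs, 1125 values under the alternatives kept their side of the threshold, 34 lost and 19 gained a call, and 0 turned direction. Of the chains with smaller changes the direction turned under at least 1 alternative in 5 of 17 (kidney age), 9 of 18 (liver age), 9 of 23 (3C fibroblasts), 6 of 26 (3C kidney) and 15 of 28 (3C liver), and none of these was called under any. The causes were not tested.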
